A study of Mus musculus with 16 samples.

Results

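The genes of the fibroblast growth factor (FGF) and platelet-derived growth factor (PDGF) families and of the Sprouty and Spred inhibitors were examined in epidermal cells of aged mice. Members were taken by gene symbol, irrespective of their level: the FGF ligands, Fgfr1 to Fgfr4, Fgfrl1, Fgfbp1, Spry1 to Spry4, Spred1 to Spred3, the PDGF ligands, Pdgfrb and Pdgfrl. This gave 41 of the 27179 gene identifiers measured, namely 22 FGF ligands, 5 FGF receptors, 1 FGF binding protein, 7 Sprouty and Spred genes, 4 PDGF ligands and 2 PDGF receptors. These families were chosen with earlier results of these data known.

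The study asked how blocking interleukin-17 acts on the aged epidermis. One group of 4 C57BL/6J mice received antibodies that block the cytokines IL-17A and IL-17F, hereafter anti-IL-17A/F, and the other group of 4 received control IgG, in both cases intraperitoneally 3 times per week for 12 weeks from 73 weeks of age. All 8 mice were therefore aged and injected, and no untreated or young mouse entered the comparison. RNA came from the epidermal side of whole-torso skin after enzymatic separation from the dermis, with no sorting of cell types, so the libraries also held hair follicle, immune and remaining dermal cells. In such bulk samples fewer cells of a type and less RNA per cell cannot be told apart.

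FGF ligands bind receptor tyrosine kinases on neighbouring cells together with heparan sulfate, and the activated receptors signal through the ERK kinases. Sprouty and Spred proteins are induced by this signalling and restrain it. In skin, FGF receptors on keratinocytes receive ligands from fibroblasts and other cells, several FGFs time the hair cycle, and PDGF ligands from the epidermis act on receptors of fibroblasts, dermal papilla cells and pericytes.

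Totals were 42816157 to 52255040 counts per anti-IL-17A/F mouse and 50533151 to 53721153 counts per control mouse. Markers of keratinocytes were abundant, as the label of the tissue implies. The 7 basal keratinocyte markers (Krt5, Krt14 and others) summed to 16620 to 18450 CPM, in which each count is divided by the TMM-scaled total of its library, in anti-IL-17A/F mice and 15950 to 19860 CPM in control mice, and the 7 suprabasal markers to 20710 to 23140 CPM and 19170 to 24080 CPM. The 10 fibroblast markers summed to 91.5 to 136 CPM in the anti-IL-17A/F mice, against 64.9 to 113 CPM in control mice. The 10 endothelial markers summed to 7.64 to 16.5 CPM in the anti-IL-17A/F mice and 7.51 to 9.86 CPM in control mice. Sums of the groups overlapped, but several lists leaned 1 way gene by gene, with no gene of them called by edgeR. Means were higher after anti-IL-17A/F for 9 of 10 tested endothelial markers (median log2 fold change 0.45), 7 of 9 fibroblast markers (0.14), 6 of 8 hair follicle stem cell markers (0.36), 11 of 11 hair shaft and matrix markers (0.33), 8 of 8 proliferation markers (0.30) and 6 of 6 melanocyte markers (0.34). They were lower for 8 of 8 macrophage markers (-0.50) and 8 of 8 T cell markers (-0.26). Some of these leans came with few mice. The hair shaft and matrix, proliferation and melanocyte sums were highest in anti-IL-17A/F mouse 4 (299, 520.5 and 124 CPM). The other mice of that group stayed below the highest control (168, 329 and 72.8 CPM). The macrophage sum was 32.9 and 28.8 CPM in control mice 3 and 4. It was 13.4 and 14.4 CPM in control mice 1 and 2, and 14.1 to 19.3 CPM after anti-IL-17A/F. The part of these lists in the levels of the members was not tested.

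Most FGF ligands were scarce in these cells, and a few receptors and inhibitors, led by Fgfr3, Fgfr2, Spry1 and Spry2, were abundant. No count was found in any mouse for 4 members (Fgf3, Fgf4, Fgf6 and Spry3). For Fgf3, Fgf4 and Fgf6 the 404656455 counts of the 8 mice allow a level of up to 0.0074 CPM (3 counts, counting error alone). Spry3 had no position or exon length in the annotation used. Whether reads could be assigned to it is unknown, so no limit is given for it. A further 14 members had between 1 and 72 counts over all mice and fell below the filter on low counts. These were Fgf2, Fgf8, Fgf12, Fgf14, Fgf15, Fgf16, Fgf17, Fgf20, Fgf21, Fgf22, Fgf23, Fgfr4, Pdgfd and Pdgfrl. The remaining 23 members were tested.

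Per kilobase of exon, the highest level belonged to Fgfbp1, a secreted carrier that releases FGFs from the matrix, at 97.3 ± 12.1 CPM per kb (SD over all 8 mice). The receptors Fgfr3 (44.0 ± 2.7 CPM per kb) and Fgfr2 (34.5 ± 3.7 CPM per kb) followed, then the inhibitors Spry1 (27.9 ± 3.5 CPM per kb) and Spry2 (24.0 ± 2.0 CPM per kb). A second tier held Pdgfb, Fgfr1, Pdgfa, Spred2 and Fgf18, at 12.8 ± 0.78, 12.0 ± 2.6, 11.3 ± 1.5, 10.1 ± 0.67 and 9.93 ± 4.1 CPM per kb. Each pair of neighbours in this tier differed by less than the larger of their 2 SDs, whereas Spry1 and Spry2 differed by slightly more than the SD of either. Below them stood Spred1 (6.66 ± 0.50 CPM per kb), Fgf1 (4.09 ± 1.2 CPM per kb) and Pdgfc (2.17 ± 0.76 CPM per kb). The receptor Pdgfrb was at 0.261 ± 0.070 CPM per kb, and the mesenchymal ligands Fgf7 and Fgf10 were at 0.110 ± 0.040 and 0.0604 ± 0.036 CPM per kb.

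**Figure D1:**
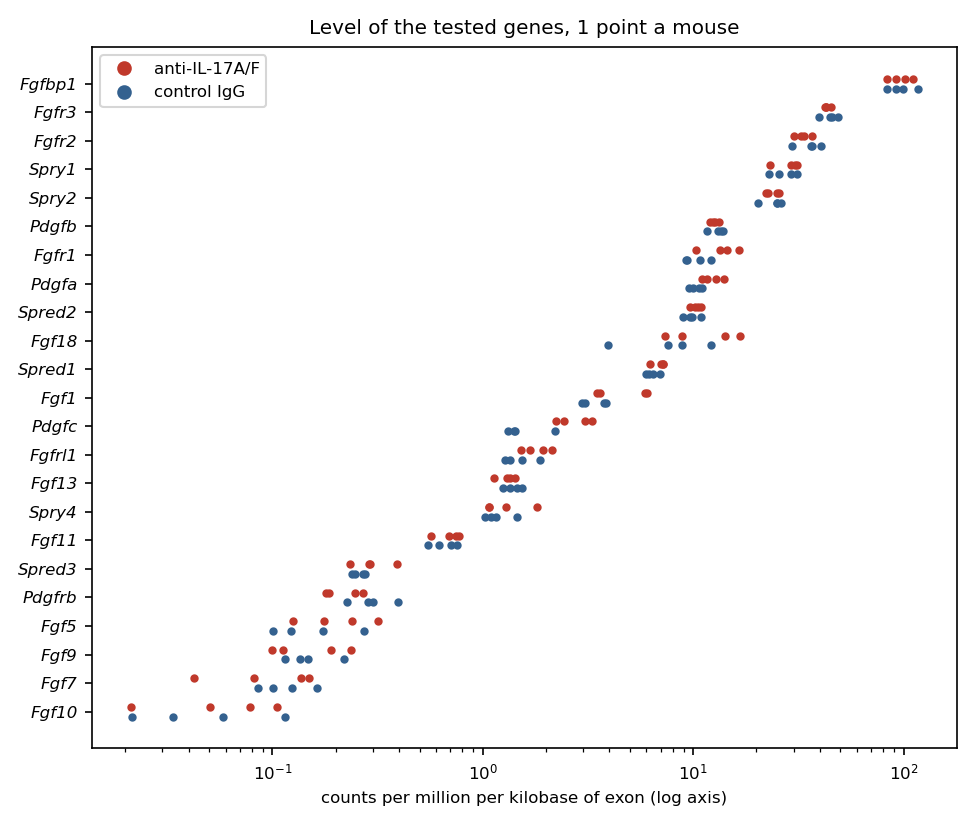
Level of the 23 tested genes in CPM per kilobase of exon on a log axis, 1 point a mouse, with anti-IL-17A/F mice above control IgG mice in each row and genes ordered by mean level. Fgfbp1 leads at 97.3 CPM per kb, and the tested ligands Fgf5, Fgf9, Fgf7 and Fgf10 lie at the bottom, below 0.2 CPM per kb on average.

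With IL-17A/F blocked, 15 of the 23 tested members had a higher mean and 8 a lower one. Higher members made up 65.2% of those tested, and 50.1% of all 16335 genes tested had a positive fold change. No member, and no gene at all, passed edgeR's quasi-likelihood test at a Benjamini-Hochberg adjusted p below 0.1 (0 of 16335, or 0%), and the adjusted p of the members ran from 0.984 to 0.995. At an unadjusted p below 0.05, edgeR listed 4 members (17.4% of those tested) and 658 genes (4.03%). The 4 were Pdgfc, Pdgfa, Fgfr1 and Fgf1, and all were higher after anti-IL-17A/F. DESeq2 listed 4 members and 751 genes at that level, and limma-voom 5 members, Pdgfrb being the additional one, and 1099 genes. DESeq2 was fitted without the filter on low counts, so its number of genes has another base than the 16335 of edgeR. After adjustment DESeq2 called 1 member, Pdgfc, among 11 genes (0.083% of 13257), and limma-voom called 0 members. In 2 members (8.7% of those tested), Pdgfc and Pdgfa, the groups did not overlap, which was so for 2.42% of all genes tested. As the members were chosen with earlier results of these data known, these shares are no independent test of the list. The median log2 fold change of anti-IL-17A/F over control was 0.080 for the tested members and 8.7e-05 for all genes. Leaving out control mouse 1 gave 0.0062, and leaving out control mouse 3 gave 0.14. The median size of the log2 fold change, whatever its sign, was 0.15 for the tested members and 0.071 for all genes.

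**Figure D2:**
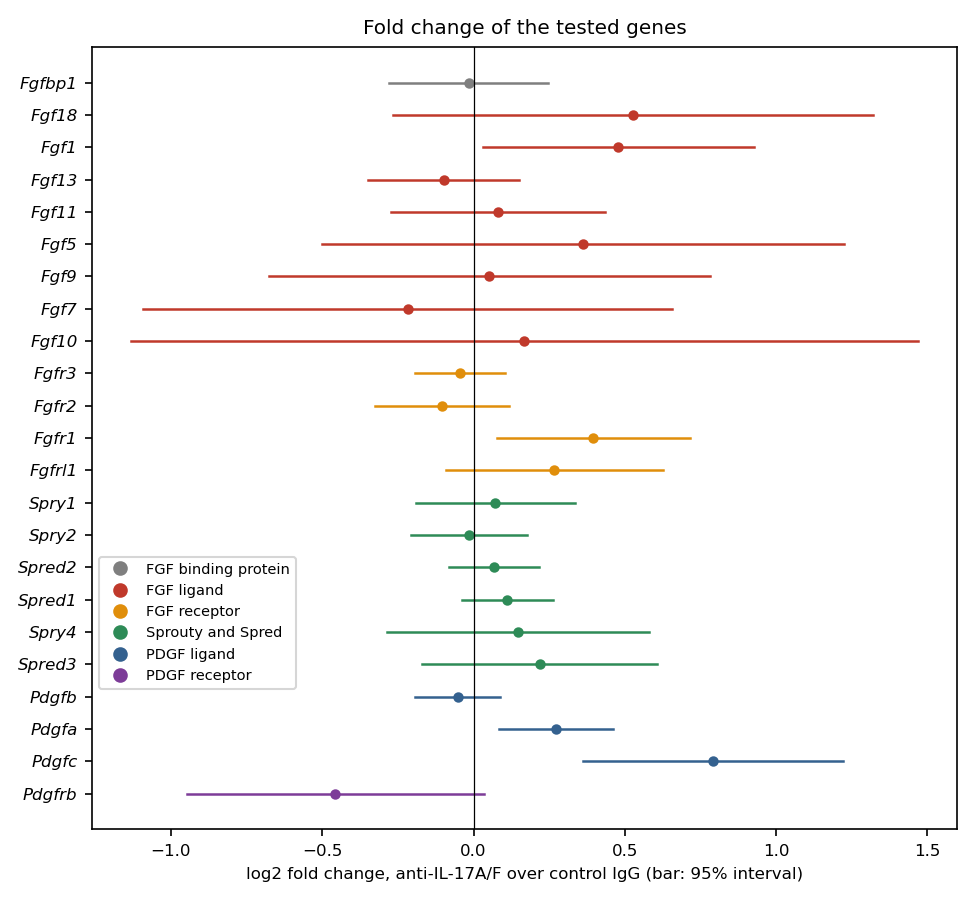
Log2 fold change of anti-IL-17A/F over control IgG for the 23 tested genes by role, with bars for the 95% interval of the edgeR fit. Intervals of Fgf1, Fgfr1, Pdgfa and Pdgfc lie above 0 before adjustment for the number of genes, and the scarce ligands Fgf10, Fgf7 and Fgf5 have the widest intervals.

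Among the FGF ligands, 8 of 22 were tested, and 6 of these had a higher and 2 a lower mean after the blockade. Fgf18, which helps to hold mouse hair follicles in their resting phase, had the highest level per kilobase. Its level was 16.8, 19.7, 8.71 and 10.5 CPM in the anti-IL-17A/F mice 1 to 4, against 10.5, 4.68, 9.02 and 14.4 CPM in control mice 1 to 4. Anti-IL-17A/F mice 1 and 2 were above all control mice and mice 3 and 4 lay among them. The log2 fold change was 0.53 (SE 0.35, unadjusted edgeR p across all genes 0.167). Leaving out control mouse 2 gave 0.30, anti-IL-17A/F mouse 2 gave 0.31 and control mouse 4 gave 0.78.

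Fgf1, a ligand without a classical secretion signal that can bind every FGF receptor, was at 32.1, 33.1, 19.1 and 19.6 CPM in the anti-IL-17A/F mice, against 21.1, 16.8, 16.3 and 20.5 CPM in control mice. Again anti-IL-17A/F mice 1 and 2 stood above all other mice, while mice 3 and 4 lay within the range of the controls. The log2 fold change was 0.48 (SE 0.20, 95% interval 0.030 to 0.93), with an edgeR p of 0.0391 before and 0.984 after adjustment. Leaving out anti-IL-17A/F mouse 2 gave 0.34, and leaving out mouse 3 of that group gave 0.60.

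The other tested ligands were low. Fgf13 and Fgf11, which stay inside the cell and are not known as ordinary receptor ligands, averaged 5.24 ± 0.49 and 2.11 ± 0.28 CPM after anti-IL-17A/F, against 5.61 ± 0.49 and 1.99 ± 0.28 CPM in control mice (SD, n = 4 each). Their log2 fold changes were -0.099 (SE 0.11) and 0.080 (SE 0.16). Fgf5, the signal that ends hair growth, averaged 0.537 ± 0.21 CPM in the anti-IL-17A/F mice and 0.419 ± 0.19 CPM in control mice, resting on 108 and 86 counts. The keratinocyte growth factors Fgf7 and Fgf10, made by mesenchymal cells and received by the epithelial form of Fgfr2, had 144 and 113 counts over the 8 mice, and Fgf9 had 298. The 95% intervals of their log2 fold changes were -1.1 to 0.66 for Fgf7, -1.1 to 1.5 for Fgf10 and -0.68 to 0.78 for Fgf9. Changes of considerable size in either direction could thus not be detected, given the low counts and the spread between mice.

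Fgfbp1 was at 188, 229, 250.4 and 209 CPM in the anti-IL-17A/F mice and 224, 264, 208 and 189 CPM in control mice. The groups overlapped nearly completely, with a log2 fold change of -0.016 and a 95% interval of -0.28 to 0.25.

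Of the FGF receptors, Fgfr1 had the largest fold change. This receptor is widely expressed in mesenchymal cells and also present in epidermis. It was at 143, 163, 102 and 132 CPM in the anti-IL-17A/F mice, against 120, 91.5, 92.5 and 107 CPM in control mice. All anti-IL-17A/F mice but 1 exceeded every control mouse, with mouse 3 inside the control range. The log2 fold change was 0.40 (SE 0.14, 95% interval 0.076 to 0.72), with an edgeR p of 0.0207 before and 0.984 after adjustment. Leaving out anti-IL-17A/F mouse 2 gave 0.29, and leaving out mouse 3 of that group gave 0.51. DESeq2 gave an adjusted p of 0.709 with all mice and of 0.0436 without anti-IL-17A/F mouse 3. The 2 sequencing runs of each mouse gave 0.39 and 0.41 when fitted alone.

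The receptors that prevail in keratinocytes differed less between groups. Fgfr2, whose epithelial form receives Fgf7 and Fgf10, was at 335, 312, 346 and 379 CPM in the anti-IL-17A/F mice and 306, 378, 374 and 418 CPM in control mice. Fgfr3 was at 307, 306, 323 and 305 CPM in the anti-IL-17A/F mice and 283, 348, 329 and 319 CPM in control mice. Both groups overlapped for both genes, and the log2 fold changes were -0.11 (95% interval -0.33 to 0.12) for Fgfr2 and -0.044 (95% interval -0.19 to 0.10) for Fgfr3. For Fgfr2, leaving out control mouse 1 gave -0.18 and leaving out control mouse 4 gave -0.040. Of the exonic sequence of Fgfr3, 13.9% is overlapped by a gene on the opposite strand. Fgfrl1, a receptor without a kinase domain, averaged 5.04 ± 0.75 CPM after anti-IL-17A/F and 4.19 ± 0.75 CPM in control mice (log2 fold change 0.27, SE 0.16). Fgfr4 had 22 counts in all anti-IL-17A/F mice and 27 in all control mice, and was not tested.

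**Figure D3:**
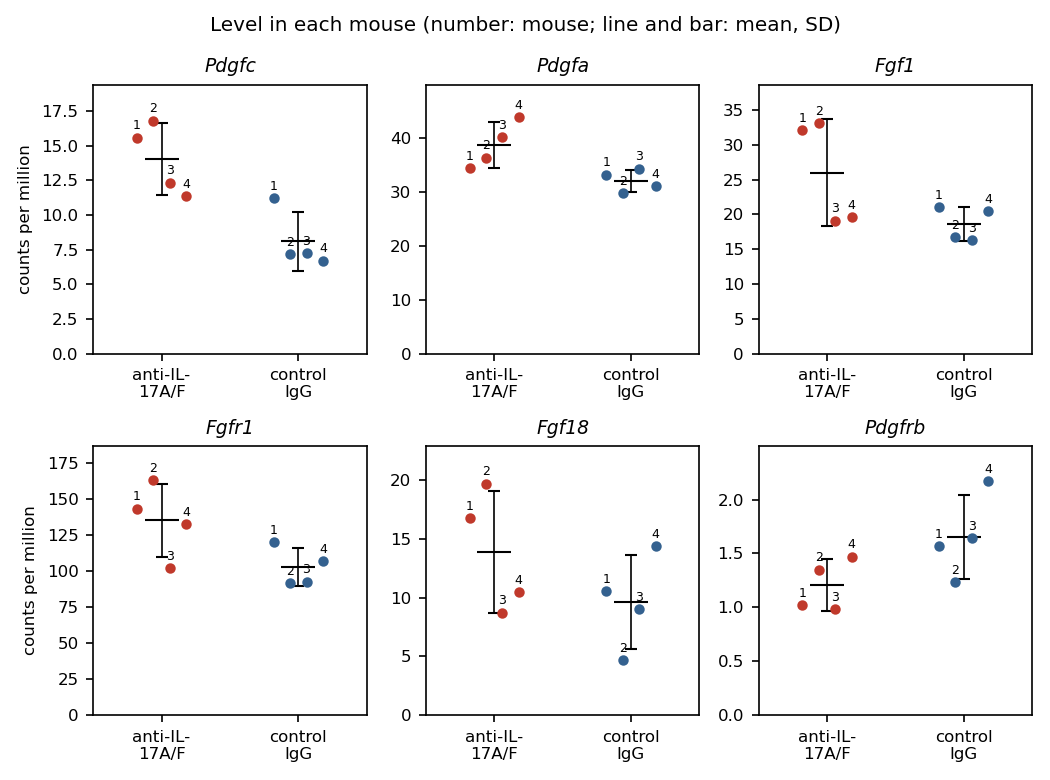
Level in CPM of Pdgfc, Pdgfa, Fgf1, Fgfr1, Fgf18 and Pdgfrb in each mouse (points, numbered by mouse), with mean and SD for the 4 anti-IL-17A/F mice on the left and the 4 control IgG mice on the right of each panel. The groups are apart for Pdgfc and Pdgfa, and for Fgf1 and Fgf18 the anti-IL-17A/F mice 1 and 2 lie above the rest.

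Of the 6 Sprouty and Spred genes tested, 5 had a higher and 1 a lower mean after anti-IL-17A/F, with a median log2 fold change of 0.091, and none had an unadjusted p below 0.05 in edgeR. Spry1, an inhibitor of receptor signalling to ERK, was at 90.5, 85.3, 88.8 and 67.6 CPM in the anti-IL-17A/F mice and 66.4, 84.9, 90.3 and 74.5 CPM in control mice. Spry2, its close relative, was at 47.1, 52.3, 46.2 and 53.5 CPM in the anti-IL-17A/F mice and 42.5, 52.0, 54.5 and 52.3 CPM in control mice. For both genes the groups covered nearly the same range. The 95% intervals of the log2 fold change were -0.19 to 0.33 for Spry1 and -0.21 to 0.18 for Spry2. A gene on the opposite strand overlaps 24.4% of the exonic sequence of Spry1.

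Spred1 and Spred2, which hold back activation of Raf upstream of ERK, averaged 46.9 ± 3.2 and 47.6 ± 2.4 CPM in the anti-IL-17A/F mice, against 43.4 ± 2.9 and 45.4 ± 3.7 CPM in control mice (SD, n = 4 each). Their log2 fold changes were 0.11 (SE 0.066) and 0.068 (SE 0.066). Spry4 averaged 6.22 ± 1.7 CPM after anti-IL-17A/F and 5.62 ± 0.90 CPM in control mice, its highest value of 8.60 CPM being in anti-IL-17A/F mouse 4. Without that mouse its log2 fold change was -0.050 instead of 0.15. Spred3 averaged 1.86 ± 0.40 CPM in the anti-IL-17A/F mice and 1.60 ± 0.11 CPM in control mice, with a log2 fold change of 0.22, or 0.071 without anti-IL-17A/F mouse 2. The 95% intervals, -0.29 to 0.58 for Spry4 and -0.17 to 0.61 for Spred3, were wider than those of the other tested Sprouty and Spred genes.

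Among the PDGF ligands, Pdgfc and Pdgfa were higher in every anti-IL-17A/F mouse than in any control mouse, and Pdgfb was not. This held for the summed runs and in batch 2, but not in batch 1. Pdgfc encodes a ligand of PDGF receptor alpha that is secreted in latent form and freed by proteases. Its level was 15.6, 16.8, 12.3 and 11.3 CPM in the anti-IL-17A/F mice, against 11.2, 7.19, 7.22 and 6.71 CPM in control mice. Control mouse 1 stood apart from the other controls and nearly reached anti-IL-17A/F mouse 4. The means were 14.0 ± 2.6 CPM after anti-IL-17A/F and 8.09 ± 2.1 CPM in control mice (SD, n = 4 each), a log2 fold change of 0.79 (SE 0.19, 95% interval 0.36 to 1.2).

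For Pdgfc the edgeR p was 0.00242 before and 0.984 after adjustment, whereas DESeq2 called the gene with an adjusted p of 0.0764 at nearly the same log2 fold change (0.79, SE 0.20). The adjusted p of limma-voom was 0.699. The DESeq2 call held when anti-IL-17A/F mouse 3 (adjusted p = 0.0816), anti-IL-17A/F mouse 4 (adjusted p = 0.0225) or control mouse 1 (adjusted p = 1.77e-06) was left out. It was lost on leaving out anti-IL-17A/F mouse 1 (adjusted p = 0.722), anti-IL-17A/F mouse 2 (adjusted p = 0.790), control mouse 2 (adjusted p = 0.542), control mouse 3 (adjusted p = 0.189) or control mouse 4 (adjusted p = 0.632). The edgeR log2 fold change stayed between 0.69 and 0.99 when each mouse was left out in turn, and it was 0.81 and 0.79 in the sequencing runs of batches 1 and 2. In batch 1 alone the groups overlapped, as anti-IL-17A/F mouse 4 had 11.6 CPM and control mouse 1 had 11.7 CPM.

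Pdgfa, another ligand of PDGF receptor alpha and a known epidermal signal to dermal cells, was at 34.4, 36.3, 40.1 and 43.9 CPM in the anti-IL-17A/F mice, against 33.2, 29.7, 34.3 and 31.0 CPM in control mice. The lowest anti-IL-17A/F value and the highest control value were almost equal, though the groups did not overlap. The log2 fold change was 0.27 (SE 0.083, 95% interval 0.083 to 0.46), with an edgeR p of 0.00978 before and 0.984 after adjustment and a DESeq2 adjusted p of 0.624. The lowest value with any mouse left out was 0.21 (anti-IL-17A/F mouse 4), and the sequencing batches 1 and 2 alone gave 0.23 and 0.33. In batch 1 the groups overlapped, with 32.0 CPM in anti-IL-17A/F mouse 1, against 33.2 and 34.8 CPM in control mice 1 and 3. A gene on the opposite strand overlaps 26.1% of the exonic sequence of Pdgfa, and the part of this overlap in the value was not tested.

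Because Pdgfc and Pdgfa were the members whose groups did not overlap in the summed runs, the 250 bases upstream of their RefSeq start sites (GRCm38.p6) are given, written 5′ to 3′ on the strand of the gene. NF-κB, of which p65 is a subunit, acts downstream of the IL-17 receptors. Its sites were searched with a loose pattern, GGGNNNNNCC, whose middle bases are free, on both strands (GGNNNNNCCC in reverse). Matches are in capitals. The Pdgfc window is chr3:81036166-81036415 (plus strand). For Pdgfa 2 annotated starts are covered, with windows at chr5:138994945-138995194 and chr5:138994282-138994531 (minus strand). The annotated span of Pdgfa reaches to chr5:139000792, upstream of both windows, and the sequence before that end was not examined.
Pdgfc: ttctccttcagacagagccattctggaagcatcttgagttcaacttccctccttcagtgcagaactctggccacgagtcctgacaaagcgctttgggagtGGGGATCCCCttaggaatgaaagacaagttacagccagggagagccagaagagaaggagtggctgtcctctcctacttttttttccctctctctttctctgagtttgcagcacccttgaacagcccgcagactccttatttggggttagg
Pdgfa, upstream start: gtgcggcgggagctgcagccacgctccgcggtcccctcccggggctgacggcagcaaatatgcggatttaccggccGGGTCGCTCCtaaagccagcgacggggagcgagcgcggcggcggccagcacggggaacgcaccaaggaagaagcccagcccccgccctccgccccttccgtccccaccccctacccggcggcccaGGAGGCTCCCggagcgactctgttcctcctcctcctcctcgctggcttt
Pdgfa, downstream start: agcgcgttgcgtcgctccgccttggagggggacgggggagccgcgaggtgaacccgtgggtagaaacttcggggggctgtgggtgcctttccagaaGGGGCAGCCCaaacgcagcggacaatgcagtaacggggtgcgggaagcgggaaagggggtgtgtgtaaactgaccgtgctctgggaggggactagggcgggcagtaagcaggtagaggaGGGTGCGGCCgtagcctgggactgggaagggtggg
The Pdgfc window held 1 match, the palindrome GGGGATCCCC, which begins 150 bases before the start, and had 50.8% G and C. Each Pdgfa window held 2 matches, with 72.4% and 66.4% G and C. Such a match occurred in 15045 of 32841 RefSeq windows of the same length (45.8%), whose median content of G and C was 52.4%. The matches describe the letters in these windows and are not measured binding sites. The paper reports ChIP-seq of p65 in epidermal cells, which was not examined here.

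Pdgfb, the ligand that recruits pericytes through PDGF receptor beta, had the highest level per kilobase of its family. It was at 49.8, 51.9, 55.4 and 52.6 CPM in the anti-IL-17A/F mice and 54.6, 56.5, 57.7 and 48.6 CPM in control mice. The groups overlapped, and the 95% interval of its log2 fold change was -0.19 to 0.088. Pdgfd, which acts on the same receptor, had 7 counts in all anti-IL-17A/F mice and 8 in all control mice.

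Pdgfrb, the receptor for PDGF-B and PDGF-D on pericytes and fibroblasts, was at 1.02, 1.35, 0.981 and 1.47 CPM in the anti-IL-17A/F mice, against 1.57, 1.23, 1.64 and 2.17 CPM in control mice. Control mouse 4 was the highest, and the groups overlapped through control mouse 2. The log2 fold change was -0.46 (SE 0.22, 95% interval -0.95 to 0.033), with an unadjusted p of 0.0642 in edgeR and of 0.0266 in limma-voom, and a limma-voom adjusted p of 0.735. Without control mouse 4 it was -0.30. The 10 pericyte and smooth muscle markers summed to 391 to 415 CPM in the anti-IL-17A/F mice and 381 to 434 CPM in control mice. Most of that sum was Notch3 and Cspg4, whereas the more specific marker Rgs5 had 29 counts and Des 15 over all mice. Unlike Pdgfrb, 6 of the 8 tested markers of this list had a positive log2 fold change (median of the list 0.20), none called by edgeR. Mcam (0.31, SE 0.10) and Cspg4 (0.31, SE 0.13) had the smallest p-values. Kcnj8 (0.43, SE 0.295) and Abcc9 (0.56, SE 0.52) were also positive. Smaller values were those of Acta2 (0.10, SE 0.32), Myh11 (0.0082, SE 0.60), Tagln (-0.0056, SE 0.12) and Notch3 (-0.10, SE 0.067). Pdgfrl, a receptor-like gene without a known kinase, had 32 and 24 counts in all anti-IL-17A/F and all control mice.

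Across mice, several members shared their highest values. Fgf1, Fgf18, Fgfr1 and Pdgfc each had their 2 highest values of all 8 mice in anti-IL-17A/F mice 1 and 2. Pdgfa did not share this order, as its highest values were in anti-IL-17A/F mice 4 and 3. The fibroblast marker sum was 108 and 96.3 CPM in the anti-IL-17A/F mice 1 and 2, against 91.5 and 136 CPM in the anti-IL-17A/F mice 3 and 4, so that its highest value fell elsewhere. The 9 dermal papilla markers summed to 46.0, 46.3, 38.2 and 47.3 CPM in the anti-IL-17A/F mice and to 36.8, 34.2, 40.7 and 39.2 CPM in control mice. All anti-IL-17A/F mice except mouse 3 were thus above all controls in this list, which rested largely on Wif1, an inhibitor of Wnt signalling, at 18.5 CPM on average after anti-IL-17A/F and 12.3 CPM in control mice. Rspo3, the other abundant gene of the list, averaged 14.5 and 15.6 CPM in these groups, and of the 8 tested genes 5 had a higher and 3 a lower mean.

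**Figure D4:**
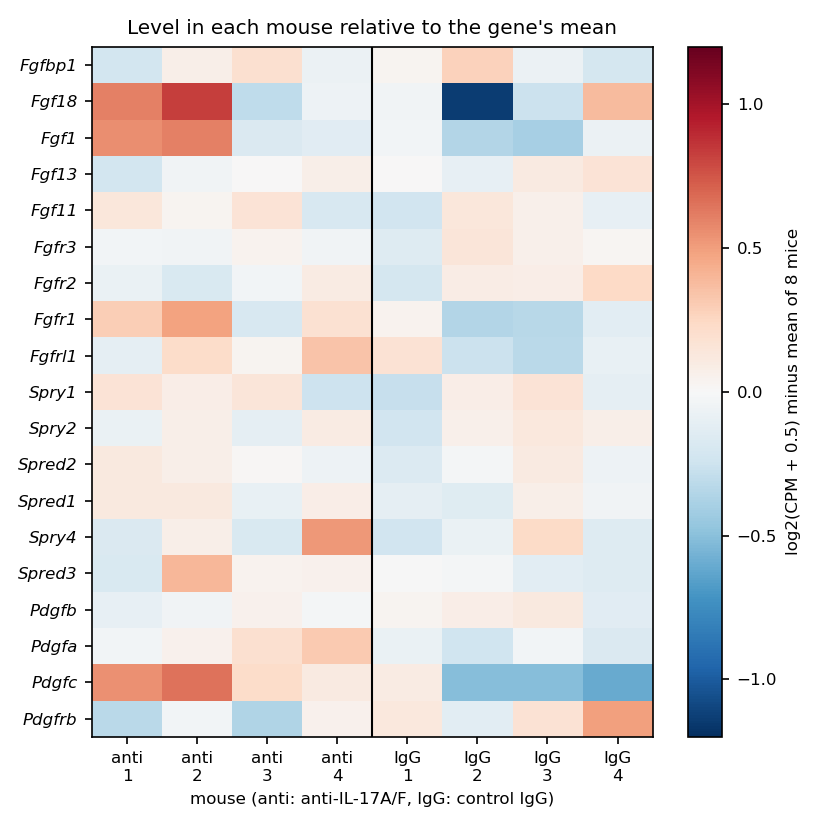
Level of the 19 tested genes with at least 500 counts in each mouse, as log2(CPM + 0.5) minus the mean of the gene over the 8 mice (red higher, blue lower), with the 4 anti-IL-17A/F mice left of the line and the 4 control IgG mice right of it. Fgf18, Fgf1, Fgfr1 and Pdgfc are at their highest in anti-IL-17A/F mice 1 and 2, and the lowest value, -1.1, is Fgf18 in control mouse 2.

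Of the 16 genes listed as ERK feedback and target genes downstream of FGF, 15 were tested, and 6 had a higher and 9 a lower mean after anti-IL-17A/F. Of all genes tested, 50.1% had a positive log2 fold change. None of the 15 was called by edgeR after adjustment, and 5 had an unadjusted p below 0.05, which was so for 4.03% of all genes. This list, too, was chosen with earlier results of these data known. The median log2 fold change was -0.15, against 8.7e-05 for all genes. Etv4, an ETS factor induced by FGF signalling, was at 27.0, 27.7, 24.6 and 34.4 CPM in the anti-IL-17A/F mice, against 27.9, 15.2, 17.9 and 14.9 CPM in control mice. Control mouse 1 was as high as the anti-IL-17A/F mice, and the other controls were below all of them (log2 fold change 0.58, SE 0.20, edgeR p 0.0172 before adjustment and 0.984 after).

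Etv5, a related factor, was at 13.0, 11.9, 9.83 and 13.3 CPM in the anti-IL-17A/F mice, against 10.3, 8.21, 10.3 and 8.92 CPM in control mice (log2 fold change 0.35, SE 0.12). Il17rd, a receptor-like protein also known as Sef that inhibits FGF signalling and modulates IL-17 signalling, was at 23.3, 25.2, 18.3 and 21.5 CPM in the anti-IL-17A/F mice and 19.3, 18.9, 17.9 and 17.6 CPM in control mice (log2 fold change 0.26, SE 0.095). In both genes anti-IL-17A/F mouse 3 was the one that lay within the control range. Phlda1, induced by ERK, averaged 18.6 CPM after anti-IL-17A/F and 14.2 CPM in control mice, its highest value of 25.5 CPM being in anti-IL-17A/F mouse 2 (log2 fold change 0.39, SE 0.16). Dusp5, a nuclear ERK phosphatase, averaged 7.36 CPM in the anti-IL-17A/F mice and 9.80 CPM in control mice (log2 fold change -0.41, SE 0.18). Their unadjusted edgeR p-values were 0.0175 for Etv5, 0.0236 for Il17rd, 0.0408 for Phlda1 and 0.0482 for Dusp5, and all were 0.984 after adjustment.

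**Figure D5:**
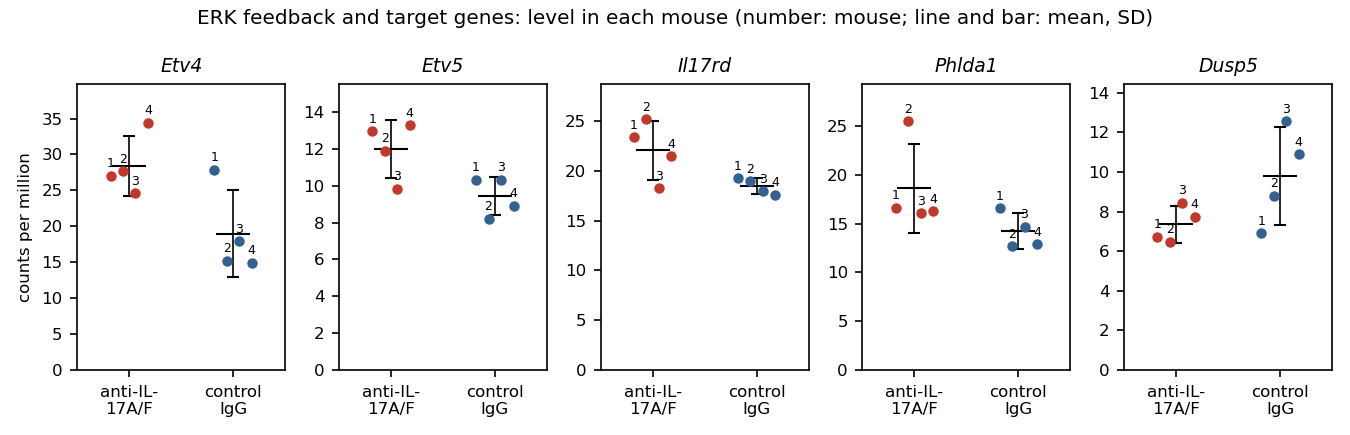
Level in CPM of the ERK feedback and target genes Etv4, Etv5, Il17rd, Phlda1 and Dusp5 in each mouse (points, numbered by mouse), with mean and SD for the 4 anti-IL-17A/F mice on the left and the 4 control IgG mice on the right of each panel. Means are higher after anti-IL-17A/F for the first 4 genes and lower for Dusp5, and the groups overlap in every panel.

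Of the co-receptors, adaptors and heparan sulfate genes that serve FGF signalling, 25 were tested, 9 with a higher and 16 with a lower mean, none with an unadjusted p below 0.05 in edgeR, and with a median log2 fold change of -0.016. The smallest p-values were those of the heparan sulfate enzyme Hs2st1 (log2 fold change 0.12, SE 0.060), the FGF receptor partner Flrt2 (0.16, SE 0.084), the ubiquitin ligase Cbl (-0.064, SE 0.058) and Flrt3 (0.13, SE 0.12). Of the 10 genes for PDGF processing and co-factors, all tested, 2 had a higher and 8 a lower mean (median log2 fold change -0.056), and none had an unadjusted p below 0.05. Among these, the adaptor Slc9a3r1 (-0.14, SE 0.090), Lrp1 (-0.058, SE 0.049), Nrp1 (-0.16, SE 0.18) and Nck2 (-0.096, SE 0.14) had the smallest p-values. Of the 6 tested genes for vascular endothelial growth factors and their receptors, 3 had a higher and 3 a lower mean. Among the factors, Vegfb (0.061, SE 0.075) was higher, and Vegfd (-0.20, SE 0.13) and Vegfa (-0.017, SE 0.14) were lower. Among the receptors, Kdr (0.11, SE 0.32) and Flt4 (0.072, SE 0.345) were higher and Flt1 (-0.047, SE 0.40) was lower.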

How the data were processed

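Epidermal poly(A) RNA of 8 mice was sequenced with stranded libraries. For the deposited table of raw, unnormalized counts by Entrez gene, the authors used STAR 2.5.2b on the mm10 genome, followed by featureCounts. How counting treated strand is not stated in those sources, so genes with exons opposite another gene are uncertain. Of 27179 identifiers, 25275 (93%) matched a RefSeq symbol. Exon lengths and overlaps with genes on the opposite strand came from GENCODE M21, and the upstream windows from RefSeq start sites.

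The 16 columns hold 2 sequencing runs per mouse, which were summed, leaving 4 mice per group. Groups were compared with edgeR 4.0.16 (R 4.3.3), using TMM factors and filterByExpr (minimum count 10, minimum total 15), which kept 16335 of 21658 genes with any count. Genes were called at an adjusted p below 0.1, the level of the study. The column titles label the 2 runs of each mouse as batches. Whether these are the experimental batch that the study used as covariate is not stated. As the runs of a mouse were summed, no batch covariate was fitted. Tests were two-sided and adjusted over all genes. DESeq2 1.42.0, limma-voom with sample weights (limma 3.58.1), other scaling, no filter, single runs and leaving out each mouse were alternatives. DESeq2 leaving out each mouse was added after seeing the data.

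Values per mouse are given for tested members with an unadjusted p below 0.05, a call by any tool, groups that did not overlap, or the highest 2 levels per kilobase of their role, and for other lists up to 4 genes of smallest p are named. Dusp5, Pdgfra, the low members, and the further pericyte markers and vascular growth factor genes named beside these were chosen after their values were seen. The members and lists were chosen with earlier results of these data known. Intervals cover 95%.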

Additional observations from a re-analysis of the deposited data

Results flagged for a closer look

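Within each group of 4 mice, the level of each tested member was checked for a mouse far from the other 3, which gave 46 groups of values. Such a check marks about 1 in 20 groups by chance, and it marked 2. Pdgfc was at 11.2 CPM in control mouse 1, against 6.71 to 7.22 CPM in the other control mice. Fgfr3 was at 323 CPM in anti-IL-17A/F mouse 3, against 305 to 307 CPM in the other anti-IL-17A/F mice.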

How the results depend on the processing

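Across all alternatives with edgeR and limma-voom, including median-of-ratios scaling, no filter, an adjusted p below 0.05 and each sequencing run alone, 0 genes and 0 members were called. DESeq2 called 11 genes and 1 member, and 0 of both with the fold threshold of the study. That threshold is set on shrunken fold changes (lfcShrink), which DESeq2 pulls towards no change. The DESeq2 log2 fold changes given in the text, such as 0.79 for Pdgfc, are not shrunken. Leaving out each mouse in turn gave 0 calls in edgeR and, in DESeq2, 0 to 121 genes (0 without control mouse 2, 121 without control mouse 1) and 0 to 2 members, the second being Fgfr1 without anti-IL-17A/F mouse 3 (adjusted p = 0.0436). The cause was not tested.

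Log2 fold changes of 8 uncalled members changed sign under at least 1 alternative: Fgf10 was -0.0098 in limma-voom, Fgf9 -0.063 and Fgfbp1 0.0025 in batch 1 alone, and Spry2 0.0091 and Fgf7 0.20 in batch 2 alone. Leaving out each mouse in turn, with edgeR or DESeq2, gave -0.19 to 0.75 for Fgf10, -0.20 to 0.27 for Fgf9, -0.47 to 0.044 for Fgf7, -0.088 to 0.083 for Fgfbp1, -0.10 to 0.0020 for Fgfr3, -0.0055 to 0.16 for Spry1, -0.091 to 0.025 for Spry2 and -0.052 to 0.26 for Spry4. Other members kept their sign when each mouse was left out in edgeR, but moved by over 1.5 times from the fit with all mice. These were Fgf5 (0.11 to 0.70), Fgf11 (0.0062 to 0.17), Fgf13 (-0.14 to -0.035), Fgf18 (0.30 to 0.78), Fgfr2 (-0.18 to -0.040), Spred2 (0.028 to 0.12), Spred3 (0.071 to 0.32), Pdgfb (-0.10 to -0.022) and Pdgfrb (-0.57 to -0.30). Fgf1 (0.34 to 0.60), Fgfr1 (0.29 to 0.51), Fgfrl1 (0.18 to 0.39) and Spred1 (0.084 to 0.16) moved less from that fit.

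Mouse numbers are shared between the groups, and nothing else is known to pair the mice. For same-numbered mice, the deviations of gene levels from the mean of each group had correlations of -0.32, 0.31, 0.24 and -0.14. With so few mice per group, these values cannot decide whether the mice were paired. A replicate block gave 0 genes and 0 members called, and a median log2 fold change of the members of 0.082.

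With 4 mice per group, changes of the size seen in most members lie within the spread between mice. Fgf5, Fgf7, Fgf9 and Fgf10 are also limited by their low counts.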
